A study of Mus musculus with 64 samples.

Results

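The cytosolic ribosomal protein genes are the genes that encode the proteins of the large and small ribosomal subunits. They were taken by symbol from the count files: every Rps or Rpl symbol with a number and the usual short endings, plus Rpsa, Rplp0, Rplp1 and Rplp2, without symbols that hold "-ps" and without the Rps6k kinases. The rule found 85 genes among the 23420 listed. They comprise 31 small subunit genes, 43 large subunit genes, 3 genes of the ribosomal stalk and 8 related genes (paralogs) whose products resemble a subunit protein, and they lie on 19 chromosomes. Of the 85, 80 passed the filter on low counts and were tested. The 5 left out by it were Rpl26, Rpl30, Rpl34, Rpl10l and Rpl39l.

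The libraries came from the striatum, the input nucleus of the basal ganglia, of mice lacking Csnk1e (casein kinase 1 epsilon, a kinase of the circadian clock), according to their labels, and of wild-type mice. There were 8 mice labelled knockout and 8 labelled wild type, all about 50 days old, with no treatment, strain or sex named in the labels. Punches from both hemispheres were pooled per mouse, with a diameter given as 3 mm in the design and 2.5 mm in the protocol, and poly(A) RNA was read as 50-base single reads. Each mouse gave 1 library, run in 4 lanes on 2 flow cells, and the lanes were summed. The labels name 16 separate mice, so the spread between libraries is between animals.

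Most ribosomal proteins are made in equal amounts. Ribosomal proteins assemble with ribosomal RNA into the small subunit, which decodes the messenger RNA, and the large subunit, which joins amino acids. The messenger RNAs of most of them begin with a C followed by an unbroken stretch of pyrimidines, the TOP motif (terminal oligopyrimidine), through which mTOR signalling controls their translation as a group. The genes are short, abundantly transcribed in almost every cell, and have left many processed pseudogenes in mammalian genomes.

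Libraries held 22088005 to 30238947 gene reads. Csnk1e itself did not follow the labels: it ran from 38.0 to 79.5 CPM (reads of a gene scaled to a common library total) in the labelled knockouts and from 42.1 to 86.2 CPM in the labelled wild types, so the groups are called labelled knockout and labelled wild type throughout. Which part of the gene was deleted the sources used here do not say. Striatal markers were high in every library, with Ppp1r1b (DARPP-32, of the projection neurons) at 953 to 1275 CPM in the labelled knockouts and 855 to 1403 CPM in the labelled wild types. In 2 libraries choroid plexus markers stood apart, summing to 1657 CPM in labelled knockout 1 and 2409 CPM in labelled wild type 7, against 14.7 to 146 CPM in the other 14. Labelled knockout 3 had 1155 CPM of Xist together with 15.8 CPM of 4 Y-linked genes, which were at 0.37 to 1.74 CPM in the other 4 libraries with Xist. The tissue is bulk, so fewer cells of a type and less RNA per cell cannot be told apart.

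Together the 85 genes held 14243 to 16455 CPM in the labelled knockouts, with a median of 15468, and 14079 to 16414 CPM in the labelled wild types, with a median of 15271. The groups overlapped over nearly their whole range. The sum was highest in labelled knockout 3 and lowest in labelled wild type 1.

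Among the genes of the subunits and the stalk, 4 were almost without reads while each of the others averaged at least 1707 reads per library, the mean of Rps26. Rpl26, a large subunit protein, had 0 reads in all 16 libraries. Rpl30, of the large subunit, had 3 to 7 reads in the labelled knockouts and 5 to 15 in the labelled wild types. Rpl34, also of the large subunit, had 2 to 14 and 6 to 16 reads in the same order. Rps27, of the small subunit, had 12 to 24 reads in the labelled knockouts and 8 to 24 in the labelled wild types. All 4 are known constituents of the mammalian ribosome. Since 3 reads are the limit that a count of 0 allows, the value of Rpl26 is a limit for each library and covers counting error only.

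Each of the 4 had a copy listed in the same count files whose transcript repeats it letter for letter over stretches as long as a read. A listed copy does not set the 4 apart, since genes with many reads had one too. The copy shared 60.6% of the read-length windows of Rpl26, 47.8% of Rpl30, 50.6% of Rpl34 and 98.6% of Rps27. Wdr89 shared 65.1% of those of Rplp2, which averaged 1977 reads. Uimc1 shared 59.7% of those of Rpl29, which averaged 4101 reads, and Rpl31-ps12 46.1% of those of Rpl31, which averaged 4040. The stretches below are from coding exons of GENCODE M21 transcripts on GRCm38, 1 for each gene, chosen as the middle one of the 50-base windows that lie within 1 exon and recur in the copy. They are shown because a 50-base read from such a stretch matches both loci equally well. All 50 letters are shared with the copy.
Rpl26: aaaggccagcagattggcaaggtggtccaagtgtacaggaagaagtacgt
Rpl30: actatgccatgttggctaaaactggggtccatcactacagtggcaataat
Rpl34: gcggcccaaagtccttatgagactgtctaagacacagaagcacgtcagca
Rps27: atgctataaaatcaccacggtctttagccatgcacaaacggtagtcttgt

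The Rpl26 stretch lies in exon 3 at chr11:68903197-68903246 on the plus strand and recurs in Gm15772 at chr5:3236617-3236666. The Rpl30 stretch lies in exon 3 at chr15:34441296-34441345 on the minus strand and recurs in Gm12191 at chr11:49678824-49678873. The Rpl34 stretch lies in exon 4 at chr3:130728791-130728840 on the minus strand and recurs in Rpl34-ps1 at chr6:71124786-71124835. The Rps27 stretch lies in exon 3 at chr3:90212994-90213043 on the minus strand and recurs in Gm9846 (Rps27rt in GENCODE) at chr9:114982542-114982591. The copies were empty too: Gm15772, Gm12191 and Gm9846 had 0 reads and Rpl34-ps1 had 1 read over the 16 libraries.

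Shared sequence was common among the genes, also among those with many reads. Of the 85 genes, 82 had at least 1 window of 50 bases that also occurs in a transcript of another locus, and in 48 more than 50% of the windows were shared. For Rps27 it was 98.6%, for Rpl26 71.3%, for Rpl34 50.6% and for Rpl30 47.8%. Rpl10, which completes the large subunit late in its assembly, had 92.1% of its windows shared and averaged 6947 reads. Rpl3, with 85.6%, averaged 13800 reads. Over the 78 genes that averaged at least 100 reads, the share of windows and the log2 level per kilobase had r = 0.34, a description across genes that are not independent. Reads with more than 1 alignment made up 21.1% to 22.9% of all reads per library and were not counted to any gene. How they would divide among the genes was not tested.

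**Figure D1:**
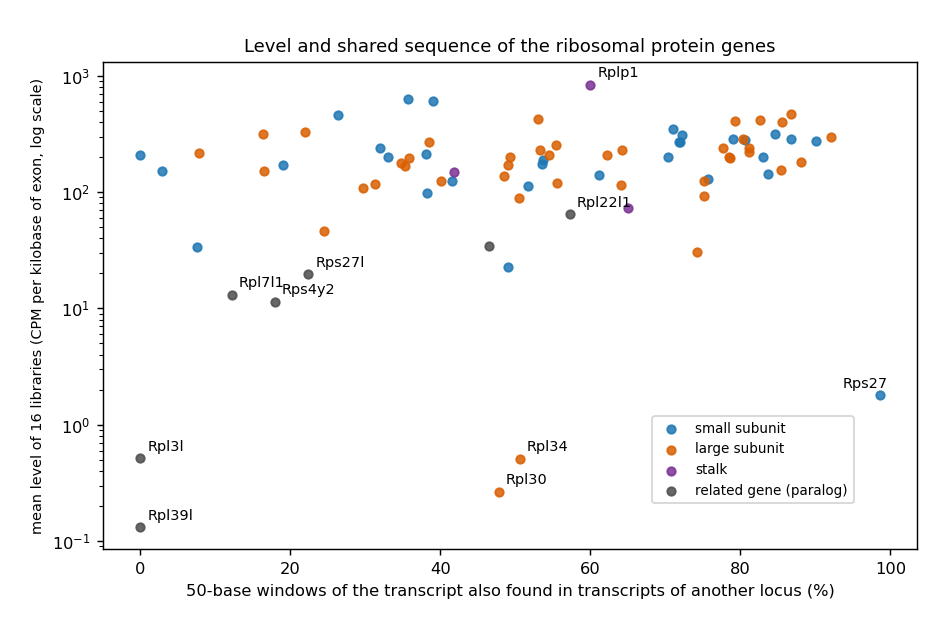
Mean level over 16 libraries (CPM per kilobase of exon, log scale) against the share of 50-base transcript windows that recur in transcripts of another locus, 1 point per gene, coloured by role. Rpl26 and Rpl10l, with 0 reads, cannot be drawn on the log scale. Rpl30, Rpl34 and Rps27 lie under 2 CPM per kilobase while 78 of the 85 genes lie above 11.

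Per kilobase of exon, the ribosomal protein genes were among the most abundant transcripts of the striatum. The 78 genes that averaged at least 100 reads had a median level of 198 CPM per kilobase, against 7.48 over 15275 tested genes with a known length, and only 230 of those genes (1.51%) were above the median ribosomal protein gene. From the 10th to the 90th percentile the 78 levels ran from 59.4 to 399 CPM per kilobase, a 6.72-fold range. The 30 small subunit genes had a median of 205 CPM per kilobase and the 40 large subunit genes of 201.

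The genes of the stalk proteins, which bring the elongation factors to the ribosome, spanned most of the range per kilobase of exon on their own. Rplp1 had the highest level of all at 840 CPM per kilobase. Rplp0, on which the stalk is built, stood at 149 and Rplp2, the partner of Rplp1 in the stalk, at 73.0. Next to Rplp1 came the small subunit genes Rps29 at 627 and Rps15 at 602, then Rpl9 at 468, Rps21 at 458 and Rpl41, the shortest ribosomal protein, at 424 CPM per kilobase. Rpsa, a small subunit protein also known as a laminin receptor, stood at 187, and Rps6, the substrate of the S6 kinases, at 318. Per kilobase of coding sequence Rplp0 stood at 213 and Rplp2 at 223 CPM, so the order of these 2 turns with the length used.

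At the low end the order depends on the annotated transcript ends. Rps15a had 22.9 and Rps20 33.6 CPM per kilobase of merged exons, which GENCODE gives as 5395 and 3706 bases. Per kilobase of coding sequence they stood at 316 and 349, near the median of 354 CPM per coding kilobase. Levels of single genes per kilobase should be read with that in mind, and the highest level per coding kilobase, 3934 for Rpl41, rests on a coding sequence of 75 bases.

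The 8 paralogs stood, with the exceptions of Rps27l and Rpl22l1, below the subunit genes that they resemble. Rpl10l, known from testis, had 0 reads in every library, and its partner Rpl10 had 299 CPM per kilobase. Rpl39l, also known from testis, had 0 to 5 reads in the labelled knockouts and 0 to 8 in the labelled wild types. Its partner Rpl39 stood at 151 CPM per kilobase, 1147 times the level of the paralog. Rpl3l, known from heart and skeletal muscle, had 9 to 23 reads in the labelled knockouts and 13 to 28 in the labelled wild types, and Rpl3 stood 763 times higher per kilobase. None of the windows of Rpl3l and Rpl39l was found in a GENCODE transcript of another locus, and the rest of the genome was not searched.

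The other paralogs were expressed at some level in every library, and the correlation with their partner across the 16 libraries differed between pairs, from r = 0.77 for Rpl36al and 0.42 for Rpl7l1 to 0.30 for Rpl22l1 and -0.25 for Rps4y2. Rpl36al ran from 43.3 to 49.1 CPM in the labelled knockouts and 42.7 to 54.2 CPM in the labelled wild types, and had 56.3% to 66.1% of the CPM of Rpl36a over the 16 libraries. Rpl22l1, which binds RNA as Rpl22 does, ran from 32.9 to 40.5 CPM and 29.8 to 40.4 CPM in the same order, which was 31.6% to 42.5% of Rpl22. Per kilobase of exon Rpl22l1 was the higher of that pair, 65.0 against 46.3 CPM, and per coding kilobase the lower, 98.05 against 249 CPM, so that order turns with the length used. Rpl7l1 had 13.9% to 16.8% of the CPM of Rpl7, and 13.1 CPM per kilobase. Rps4y2 (Rps4l in GENCODE, which gives it no coding sequence) had 2.61% to 4.36% of the CPM of Rps4x, and 11.4 CPM per kilobase. Rps27l, which p53 induces, stood at 19.7 CPM per kilobase, above the 1.79 of its partner Rps27, which is one of the 4 genes almost without reads.

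The levels varied little from mouse to mouse. Over the 16 libraries the SD of log2 CPM had a median of 0.088 over the 80 tested genes, against 0.132 over all 15446 tested genes and 0.096 over the 2405 tested genes of at least 100 CPM. Counting alone would give a median SD of 0.021, so the spread is larger than counting error. The steadiest were Rpl7l1, Rpl22, Rpl23, Rpl27 and Rps4x, with SDs of 0.058 to 0.066. Rpl23, a large subunit protein that also binds Mdm2, ran from 178 to 199 CPM in the labelled knockouts and from 172 to 196 CPM in the labelled wild types. The groups overlap almost fully.

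The 5 widest were Rps27 and Rpl3l at 0.41 and 0.37, Rps4y2 at 0.17, Rpl3 at 0.15 and Rps21 at 0.13. For Rps27 and Rpl3l, with about 16 and 18 reads per library, counting error alone comes to 0.36 and 0.34. For Rpl3 it comes to 0.01, so its spread is between libraries. Rps21, a small subunit protein, ran from 158 to 209 CPM in the labelled knockouts and from 154 to 214 CPM in the labelled wild types, with its highest values in labelled knockout 7 and labelled wild type 5.

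What variation there was, was largely shared. Over 3160 pairs of the 80 genes, the median Pearson r across the 16 libraries was 0.66, and 97.8% of the pairs had an r above 0. Over all tested genes the median was 0.00 and 49.9% of pairs were above 0, and over the tested genes of at least 100 CPM the median was 0.02. The first principal component of the 80 scaled genes held 63.0% of their variance, against 21.3% for all tested genes and 30.4% for those of at least 100 CPM, and 79 of the 80 genes loaded on it with 1 sign. These libraries share scaling, dissection and RNA preparation, so the correlations are given as descriptions. Centring within each labelled genotype left the median r at 0.67.

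The genes of the subunits did not separate in this pattern. The median r was 0.69 within the 31 small subunit genes and 0.70 within the 40 large subunit genes. A score was formed for each library as the mean over genes of log2 CPM minus the gene's own mean. The scores of the small and the large subunit genes had r = 0.98 across the 16 libraries.

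The common score ran over 0.22 log2 units and was spread alike in both labels. In the labelled knockouts its lowest, median and highest values were -0.11, 0.01 and 0.09, and in the labelled wild types -0.13, -0.01 and 0.09. Labelled knockout 2 and labelled wild type 1 were the lowest, and labelled knockout 3, labelled wild type 6 and labelled wild type 8 the highest. Labelled knockout 2 held the lowest value of 19 of the 80 genes and labelled wild type 1 of 41. The lowest and the highest libraries thus came from both labels.

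**Figure D2:**
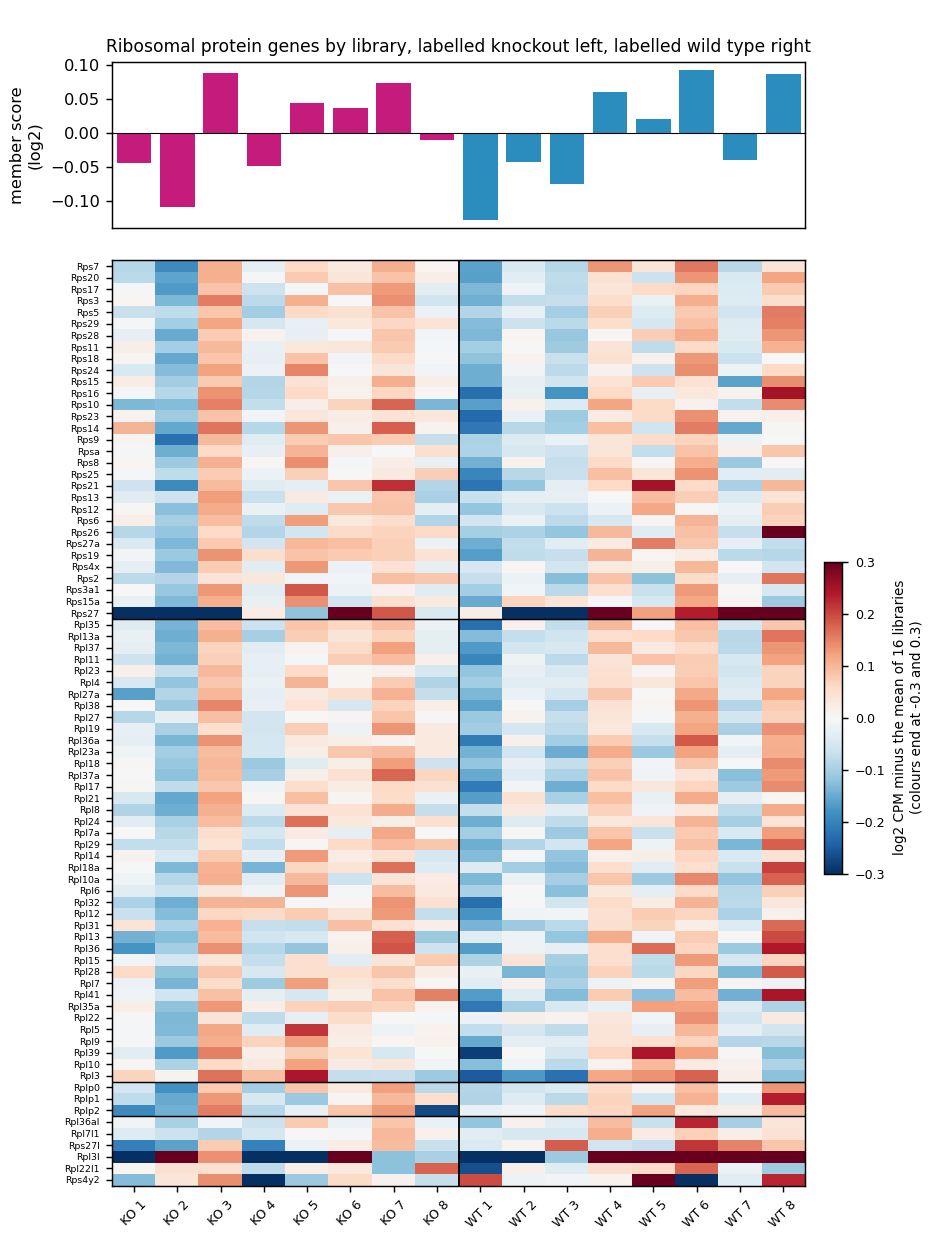
Bars give the mean over 80 tested genes of log2 CPM minus the gene's mean (member score) in the 8 labelled knockout (left, pink) and 8 labelled wild-type (right, blue) libraries. The heat map below gives the same difference for each gene, grouped as small subunit, large subunit, stalk and paralogs and ordered by r with the other genes. Labelled knockout 2 and labelled wild type 1 are blue and labelled knockout 3 and labelled wild type 6 red for almost all rows above the paralogs.

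Of the 80 genes, 40 had an r of at least 0.8 with the mean of the other 79. The 5 highest were Rpl35, which lies at the exit tunnel of the large subunit, at 0.95, Rpl13a at 0.95, Rps7 at 0.94, Rpl37 at 0.94 and Rps20 at 0.94. Rpl35 ran from 108 to 126 CPM in the labelled knockouts with a median of 120, and from 101 to 127 CPM in the labelled wild types with a median of 119. Rps7 ran from 199 to 245 CPM with a median of 230, and from 203 to 254 CPM with a median of 227, in the same order. In both genes the ranges of the groups overlap. At the other end, 7 genes had an r under 0.5. They were Rps4y2 at -0.02, Rpl22l1 at 0.33, Rpl3l at 0.36, Rps27l at 0.40, Rps27 at 0.41, Rpl3 at 0.47 and Rps15a at 0.48. Of these, 4 are paralogs and Rps27 and Rpl3l have few reads, which leaves Rpl3 and Rps15a as abundant subunit genes that followed the others less closely.

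The stretch around the transcription start is printed for 6 of the genes, since the TOP motif lies there. They are the 3 of the highest and the 3 of the lowest r with the other genes among those of at least 100 reads that have 1 start in the RefSeq promoter table (GRCm38.p6). Each stretch has 50 bases before the annotated start and 25 from it on, and capitals mark the longest unbroken run of C and T within 25 bases of the start.
Rpl35: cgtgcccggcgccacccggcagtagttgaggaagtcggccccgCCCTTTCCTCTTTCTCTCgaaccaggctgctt
Rpl13a: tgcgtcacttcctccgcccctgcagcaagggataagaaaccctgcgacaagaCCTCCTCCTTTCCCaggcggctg
Rps7: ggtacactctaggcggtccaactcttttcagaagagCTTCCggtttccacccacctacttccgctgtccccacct
Rplp2: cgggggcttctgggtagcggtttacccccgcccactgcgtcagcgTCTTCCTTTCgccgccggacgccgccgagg
Rps15a: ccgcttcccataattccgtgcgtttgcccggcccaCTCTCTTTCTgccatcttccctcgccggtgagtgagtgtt
Rpl22l1: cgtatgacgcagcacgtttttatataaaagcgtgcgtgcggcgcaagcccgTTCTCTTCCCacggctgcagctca

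The stretches lie at chr2:39005107-39005181 (minus strand) for Rpl35, chr7:45128721-45128795 (minus) for Rpl13a, chr12:28635929-28636003 (minus) for Rps7, chr7:141447601-141447675 (plus) for Rplp2, chr7:118116123-118116197 (minus) for Rps15a and chr3:28805458-28805532 (plus) for Rpl22l1. The run had 18 bases in Rpl35, 14 in Rpl13a and 5 in Rps7, against 10 in each of Rplp2, Rps15a and Rpl22l1. The 3 genes of high r had the longest and the shortest run of the 6. In Rps7 several runs have that same length, and a longer run crosses the limit of 25 bases. An annotated start can lie a few bases off the one used in the striatum.

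RefSeq promoters were matched for 64 of the 85 genes and covered 27025 genes in all. A run of at least 8 pyrimidines within 25 bases of a start was found in 33 of the 64 (51.6%), against 22.3% of all 27025. Over the whole 300-base promoters, from 250 bases before the start to 50 after it and on either strand, the letters CTCTTTC occurred in 28.1% of the ribosomal protein genes and 9.28% of all genes. CCGGAAG, a core of ETS factor sites, occurred in 40.6% and 9.93%. AAGATGGC, a core of YY1 sites, occurred in 9.38% and 3.19%, and TATAAA in 10.9% and 15.7%. A gene with several starts was counted once if any promoter held the letters, and a match is a description of the letters and not of a bound factor.

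Rpl3, at the peptidyl transferase centre of the large subunit, had the highest mean CPM of all 85 genes, although Rpl4 was above it in 5 libraries. It lies on chromosome 15 at chr15:80077791-80091868, 622225 bases from Csnk1e at chr15:79417856-79455566. It ran from 494 to 631 CPM in the labelled knockouts with a median of 548, and from 448 to 603 CPM in the labelled wild types with a median of 515. No library lay between 508 and 537 CPM. The gap between 603 and 631 CPM was nearly as wide, and the widest within the labelled knockouts lay between 596 and 631 CPM. Labelled knockouts 1 to 5 and labelled wild types 4 to 7 were above the gap at 508 to 537 CPM. Labelled knockouts 6 to 8 and labelled wild types 1, 2, 3 and 8 were below it.

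Those 9 libraries above the gap in Rpl3 are the same 9 in which Csnk1e stood between 72.2 and 86.2 CPM, and the other 7 are those in which Csnk1e stood between 38.0 and 44.9 CPM. Rpl3 was singled out after its values were seen. As the libraries fall into separate clusters of Csnk1e no r over all 16 is given, and it serves only for a ranking below. Within the 9 libraries r between log2 Rpl3 and log2 Csnk1e was 0.64, and within the 7 it was -0.33. For Rpl8, a large subunit gene also on chromosome 15, the same r was 0.65 and 0.33. Rpl8 shows no such gap, with 205 to 245 CPM in the labelled knockouts and 215 to 245 CPM in the labelled wild types, and its r with the other ribosomal protein genes was 0.85. Of the 10 genes ranked most like Rpl3 by r over all 16 libraries, 5 lie on chromosome 15, with Csnk1e first. Among tested genes of at least 10 CPM with a position, 4.00% lie there. The part that the Csnk1e locus has in these values was not tested.

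**Figure D3:**
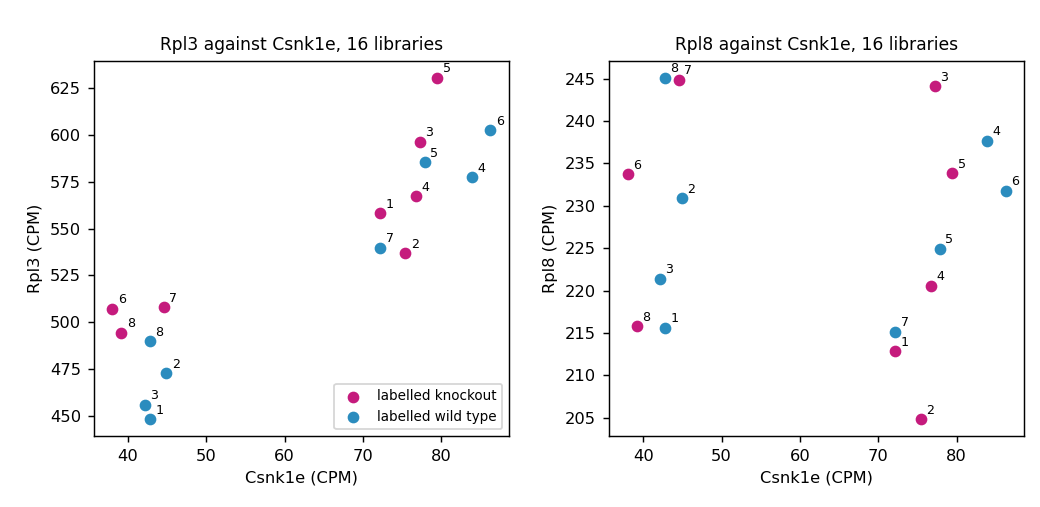
CPM of Rpl3 (left panel) and of Rpl8 (right panel) against CPM of Csnk1e, 1 point per library with its mouse number, pink for labelled knockout and blue for labelled wild type. In Rpl3 the 9 libraries on the right lie at 537 to 631 CPM and the 7 on the left at 448 to 508 CPM, whereas in Rpl8 their ranges overlap.

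A second pattern, with 10.8% of the variance, set 2 libraries against each other. On this component labelled knockout 5 stood at 0.49 and labelled wild type 8 at -0.71, against -0.24 to 0.20 in the other libraries. Labelled knockout 5 held the highest value of 15 of the 80 genes and labelled wild type 8 of 28. Such counts do not show this pattern alone, since labelled wild type 6, at 0.18 on it, held 13. In labelled wild type 8, Rps26, a small subunit protein at the messenger RNA exit, reached 83.7 CPM, against 61.1 to 69.4 CPM in the labelled knockouts and 61.2 to 70.9 CPM in the other labelled wild types. Rplp1 reached 492 CPM there, against 377 to 457 CPM in the labelled knockouts and 392 to 449 CPM in the other labelled wild types. In labelled knockout 5, Rpl5, which carries 5S ribosomal RNA into the large subunit, reached 328 CPM, against 271 CPM in labelled wild type 8. These genes were picked after their values were seen. The loadings on this component had r = 0.23 with the log2 coding length over the 73 genes of at least 50 CPM.

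Fau and Gnb2l1, which lie outside the rule but are known to belong to the ribosome, had a high r with the score. Fau, whose product is a ubiquitin-like fusion of a small subunit protein, had r = 0.86 and ran from 148 to 172 CPM in the labelled knockouts and from 140 to 186 CPM in the labelled wild types. Gnb2l1 (Rack1), a scaffold on the small subunit, had r = 0.85 and ran from 170 to 192 CPM in the labelled knockouts and from 167 to 198 CPM in the labelled wild types. Neither was used to form the score.

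Lists of the machinery that makes and controls ribosomes had a lower r with the score. The 16 translation factors and other genes known for TOP messenger RNAs, such as Eef1a1 and Eef2, had r = 0.43 with the score. The 36 genes of ribosome biogenesis, among them nucleolin (Ncl), fibrillarin (Fbl) and the subunits of RNA polymerase I, had r = -0.24, and the 18 regulators around mTOR and Myc had r = -0.13. Within the biogenesis list the median r between genes was 0.01, against 0.66 within the ribosomal protein genes. Over the other lists it ran from 0.01 for the regulators to 0.93 for choroid plexus markers. It was 0.54 for oxidative phosphorylation genes, 0.31 for mitochondrial ribosomal protein genes and 0.82 for striatal projection neuron markers. A high r within a list was thus not particular to the ribosomal protein genes. The 2 libraries farthest from the median score were labelled knockout 2 and labelled wild type 1. Without them, r with the score was 0.33 for the TOP list, -0.06 for biogenesis and -0.14 for the regulators.

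Lists of mitochondrial and proteasome genes had a high r with the score. The 73 nuclear genes of oxidative phosphorylation, the mitochondrial respiratory chain and ATP synthase, had r = 0.88, the 76 mitochondrial ribosomal protein genes 0.83 and the 39 proteasome genes 0.70. Without the same 2 libraries the 3 values were 0.86, 0.80 and 0.67. The 10 genes outside the rule that were most like the score included Ndufb9 at r = 0.92, Uqcr11 at 0.90, Cox4i1 at 0.89, Ndufb11 at 0.88, Sdhb at 0.86, Ndufb8 at 0.86, Fau at 0.86, Gnb2l1 at 0.85 and Cox7c at 0.85. Of the 10, 5 are in the oxidative phosphorylation list, and Cox4i1 and Sdhb are respiratory chain genes that its rule did not take. Ndufb9, a subunit of complex I, ran from 132 to 158 CPM in the labelled knockouts and from 134 to 173 CPM in the labelled wild types. Among 10196 genes of at least 10 CPM outside the rule, 41 had an r of at least 0.8, and 16 of the 41 were in that list.

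The score also moved with exon length across the rest of the genome. With the ribosomal protein genes left out, the median of the 246 tested genes with 500 to 750 bases of merged exon had r = 0.84 with the score, that of the 464 genes with 750 to 1000 bases 0.83 and that of the 1365 genes with 1000 to 1500 bases 0.75. For the 126 genes under 500 bases it was 0.56, and 0.35 without labelled knockout 2 and labelled wild type 1. From 2000 to 3000 bases it was 0.36, from 3000 to 5000 bases, with 4761 genes, -0.76, and for the 3056 longer genes -0.68. These are correlations of bin medians, and single genes followed the score far less, with a median r per gene of 0.02 under 500 bases, 0.37 at 500 to 750 bases and -0.09 at 3000 to 5000 bases. The share of reads in no gene, 18.4% to 19.8% in the labelled knockouts and 18.03% to 19.2% in the labelled wild types, had r = -0.59 with the score. The depth had r = 0.10 and the share of reads with more than 1 alignment 0.17. The share of ambiguous reads had r = 0.51, and 0.53 without the 2 libraries farthest from the median. The library number in the labels had r = 0.54, falling to 0.35 without those 2 libraries. The part that any of these has in the shared variation was not tested.

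Cell type marker lists had r between -0.55 and 0.45 with the score. The mural marker list, whose summed level was 211 to 269 CPM in the labelled knockouts and 192 to 234 CPM in the labelled wild types, had r = -0.55, and the endothelial list, at 295 to 372 CPM and 297 to 362 CPM, had r = -0.50. The striatal projection neuron list had r = -0.41, the ependymal list 0.45, the cortical excitatory neuron list 0.35 and the oligodendrocyte list 0.28. The astrocyte, microglia, choroid plexus and blood lists lay between -0.20 and -0.02. The heat shock list had r = 0.05. Without labelled knockout 2 and labelled wild type 1 the ependymal r fell to 0.14, the oligodendrocyte r was 0.45 and the choroid plexus r -0.45. The blood r was then -0.29, the heat shock r -0.21, the mural r -0.61 and the endothelial r -0.47. Over all 16 libraries centred within each label, the mural r was -0.74 and the endothelial r -0.52. In 9 of the 10 marker lists every gene in the files had reads in at least 1 library, and 3 of the 4 blood markers in the files were at 0 in every library. The part of these cell types in the score was not tested.

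**Figure D4:**
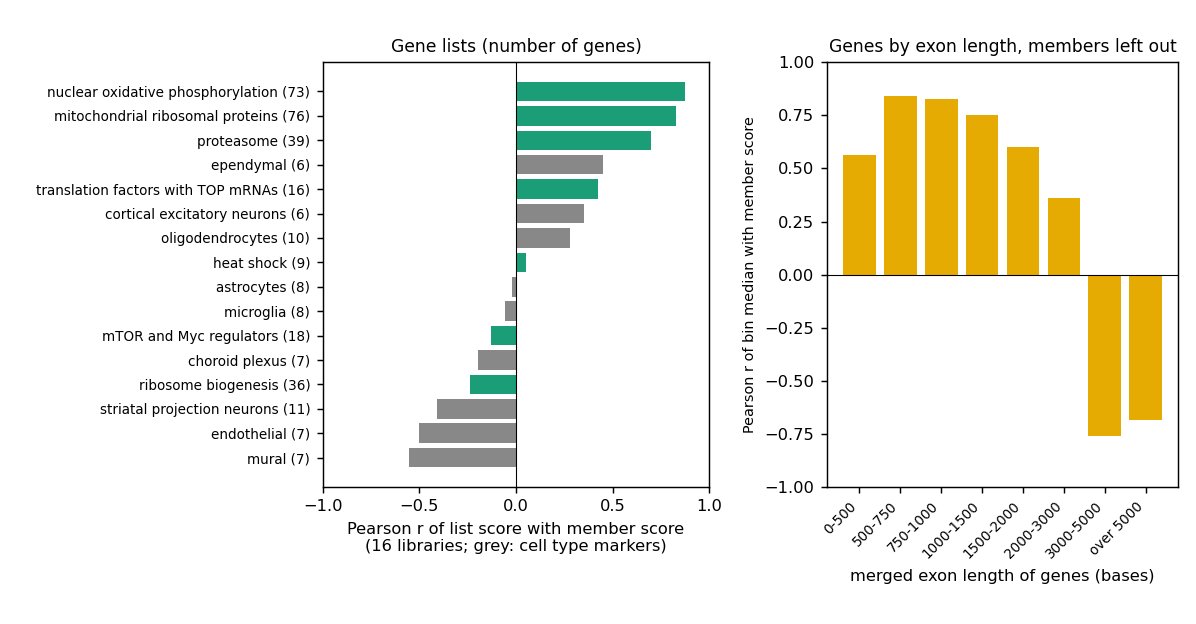
Left, Pearson r over 16 libraries between the score of the ribosomal protein genes and the score of each gene list, with the number of genes in brackets, green for pathways and grey for cell type markers. Right, the same for the median of tested genes binned by merged exon length, with the ribosomal protein genes left out. Values run from 0.88 for oxidative phosphorylation to -0.55 for mural markers, and from 0.84 at 500 to 750 bases to -0.76 at 3000 to 5000 bases.

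Between the labelled genotypes no ribosomal protein gene passed the test. By edgeR's quasi-likelihood test with Benjamini-Hochberg adjustment over 15446 genes, 0 of the 80 were called at an adjusted p under 0.05, where 0.0% of all genes were called. At an unadjusted p under 0.05 the count was also 0 of 80, against 526 of 15446 genes (3.41%). DESeq2 called 0 of the 80 with 0 at that unadjusted level, and limma-voom called 0 with 1, Rps19. In no tested gene of the 80 did the CPM ranges of the groups fail to overlap, which they did in 0.00647% of all tested genes. Every direction here is between labels that the targeted gene goes against.

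Changes were small where they can be measured well. Over the 73 genes of at least 50 CPM, log2 fold changes ran from -0.08 to 0.09, and their 95% confidence intervals lay between -0.19, the lower bound of Rplp2, and 0.22, the upper bound of Rpl3. Over all 80 the median was 0.01, against 0.00 over all tested genes, with 57 of 80 above 0, where 50.3% of all genes were. That count rests on single libraries: without labelled wild type 1, the library of the lowest score, it was 31 of 80. With the library number as a covariate it was 73 of 80 with a median log2 fold change of 0.05, and 0 of the 80 were called.

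Rps19, a small subunit protein whose human gene is mutated in Diamond-Blackfan anaemia, had the smallest p. It ran from 151 to 179 CPM in the labelled knockouts with a median of 170, and from 145 to 175 CPM in the labelled wild types with a median of 155. The groups overlapped, with a log2 fold change of 0.09 (SE 0.04), unadjusted p = 0.0509 and adjusted p = 0.997 by edgeR. Rps27l followed, with 8.51 to 10.5 CPM in the labelled knockouts and 9.35 to 11.4 CPM in the labelled wild types and a log2 fold change of -0.11 (SE 0.06). Rps14, whose human gene lies in the region lost in the 5q- syndrome, had 212 to 267 CPM and 203 to 262 CPM in the same order, a log2 fold change of 0.09 (SE 0.06). Rplp2 had 63.5 to 85.2 CPM and 75.4 to 83.3 CPM, a log2 fold change of -0.08 (SE 0.05).

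The other 6 of the 10 smallest p were also of small size. They were Rpl35a at 0.07, Rpl3 at 0.08, Rpl9 at 0.06, Rpl22 at -0.04, Rps4y2 at -0.10 and Rpl3l at -0.27 log2, the last from 9 to 23 reads per library in the labelled knockouts and 13 to 28 in the labelled wild types. By role, 25 of 31 small subunit genes, 31 of 40 large subunit genes, 0 of 3 stalk genes and 1 of 6 tested paralogs had a log2 fold change above 0, with medians of 0.02, 0.01, -0.03 and -0.07. The difference between the roles was not tested.

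**Figure D5:**
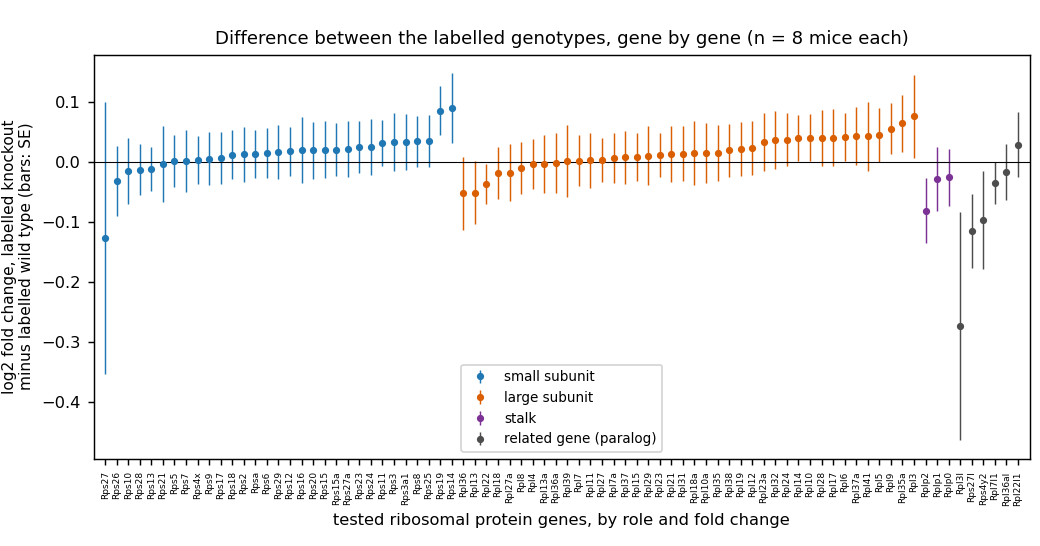
Log2 fold change, labelled knockout minus labelled wild type, of the 80 tested genes with its standard error from edgeR, grouped by role and ordered by size (8 mice in each label). All but Rps27 and the paralogs lie between -0.08 and 0.09, and none passed the test.

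The pathway lists around the ribosome are short, so their counts of small p are descriptions beside the share over all genes. At an unadjusted p under 0.05 there were 0 of 16 genes of the TOP list, 0 of 36 of ribosome biogenesis, 0 of 18 of the mTOR and Myc regulators and 0 of 39 proteasome genes, against 3.41% of all genes. Among 76 mitochondrial ribosomal protein genes there were 3 (3.95%), 1 higher and 2 lower, the lower ones being Mrpl34 at -0.20 (SE 0.08) and Mrpl4 at -0.11 (SE 0.05) log2. Among 73 oxidative phosphorylation genes there was 1 (1.37%), Cox8a at -0.22 (SE 0.09) log2. Of the regulators, Akt1s1 (PRAS40, an inhibitor of mTOR complex 1) had -0.15 (SE 0.08) and Tsc1 0.09 (SE 0.05) log2. Of the biogenesis genes Polr1c had -0.08 (SE 0.05) log2, and of the TOP list Eif4b had 0.03 (SE 0.03). Of the cell type lists, 3 of 7 mural genes and 2 of 8 microglial genes were higher and 2 of 10 oligodendrocyte genes and 1 of 6 ependymal genes lower at that level, for example Myh11 (smooth muscle myosin) at 0.36 (SE 0.14) log2. Each of these named genes had an adjusted p of 0.997 by edgeR, and the part of the cell types in the values of the ribosomal protein genes was not tested.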

How the data were processed

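The deposited files hold raw read counts per gene, 1 file for each of 64 lane runs, with no normalization. Per the submitters' processing notes the build was mm10 and the tools were HTSeq (0.6.1p1), TopHat2 (2.0.0), FastQC (0.10.1) and edgeR (2.14). Neither the annotation nor the strand option used for counting is stated in them, and antisense and overlapping genes may share reads. Per the labels' protocols the kit was stranded. The 5 summary rows of each file were left out of library sizes (no gene 18.0% to 19.8%, ambiguous 0.77% to 0.83%, more than 1 alignment 21.1% to 22.9% of reads). Lanes of a mouse were summed, since their counts differed by no more than sampling noise (chi-square over its degrees of freedom 1.00 to 1.03, against 6.20 to 37.2 between mice of 1 label).

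The members, lists and tests were chosen with earlier results of these data known. Tests used edgeR 4.0.16 in R 4.3.3 (TMM, filterByExpr, no covariate, two-sided, 8 against 8 mice) on 15446 genes holding 99.96% of gene reads, with all p-values adjusted over them. Log2 CPM used a prior count of 2. Lengths, positions and 50-base windows came from GENCODE M21 principal transcripts on GRCm38, the assembly of mm10, and 1 gene was matched by an older symbol. Named genes were the 6 highest and 6 lowest levels per kilobase, the 10 smallest p, the 5 largest and smallest SDs, the 5 highest and lowest r with the other members, the paralog pairs, Rpsa, Rplp0, Rplp1, Rplp2 and Rps6, the 10 genes most like the score, Fau, Gnb2l1, Csnk1e and 2 genes of each list. Of the genes so named, 1 is not reported here. Other genes were named after their values were seen. Alternatives used DESeq2 1.42.0 and limma 3.58.1. Counts were simulated once to check that the test recovers known changes. Reads carry no molecular identifiers, so counting error understates the error of a value.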

Additional observations from a re-analysis of the deposited data

Results flagged for a closer look

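In 94 groups of 8 libraries, 3 had 1 library farther from the rest than Dixon's limit for 8 values allows, and chance gives about 1 in 20 groups. The groups do not cover all 80 tested genes. Rps26, not among the genes named by rule, stood at 83.7 CPM in labelled wild type 8, against 61.2 to 70.9 CPM in the other labelled wild types. Rps27 stood at 0.945 CPM in labelled knockout 6, against 0.454 to 0.668 CPM in the other labelled knockouts, which is 24 reads against 12 to 19. Rpl22 stood at 105 CPM in labelled wild type 6, against 92.1 to 97.9 CPM in the other labelled wild types. Rpl7 stood at 292 CPM in the same library, against 250 to 270 CPM in the others, and that library also had the highest score of all 16.

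Pseudogene symbols left out of the rule held few reads. Rps19-ps3 averaged 32.8 reads per library (20 to 53), Rps15a-ps6 11.2 (1 to 34), Rps15a-ps4 9.0 (4 to 17) and Rpl31-ps12 9.0 (2 to 16), each above the 3 counts that a count of 0 allows. Rpl34-ps1 had 1 read in all and Rplp2-ps1 had 0.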

How the results depend on the processing

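No ribosomal protein gene was called under any of 28 refits, in which 0 of all tested genes were called, and the log2 fold changes of the 10 named by p kept their direction in every refit that tested them (Rpl3l was not tested under the CPM filter or on 1 flow cell). Genes at an unadjusted p under 0.05 numbered 0, against 1 with library totals only, limma-voom or a filter of at least 1 read (Rpl30). The count was also 1 with CPM of at least 1 in at least 8 mice, flow cell 1 alone or the replicate block. It was 2 with the library number as a covariate (Rps19 and Rpl35a), and 0 to 2 leaving out 1 mouse. Over all tested genes the share at that level was 2.09% to 5.88% across the refits, and 2.34% to 5.88% leaving out 1 mouse. Genes with a log2 fold change above 0 numbered 57, against 31 to 66 leaving out 1 mouse, the 31 without labelled wild type 1, and 73 with the library number. The median log2 fold change was -0.0049 to 0.027 leaving out 1 mouse, and below 0 without labelled wild type 1 or 3, and 0.054 with the library number. The median level was 198 CPM per kilobase of merged exon, 208 per longest transcript, 354 per coding kilobase and 415 per kilobase of unshared windows. The last 2 lengths and the floor of 50 CPM were added after seeing the data. Leaving out 1 mouse gave a median r of 0.59 to 0.70, a first component of 57.5% to 66.3%, a median SD of 0.080 to 0.092 and a score range of 0.20 to 0.23. The cause of these shifts was not tested. Windows found once in the genome were not run.

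The mouse numbers of the 2 labels were tried as pairs. Same-numbered libraries had correlations of -0.34 to 0.10 of their deviations, none of 8 above 0.1, and no library correlated best with its own number, so they share only a number. The replicate block gave 0 calls, 1 gene at an unadjusted p under 0.05 (Rps27l) and a median log2 fold change of 0.01.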
